A study of Homo sapiens with 6 samples.

Results

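The 10 genes described here are established mediators of bone and lung metastasis of breast cancer: SPARC, TNC, SPP1, CD44, ICAM1, VCAM1, CXCR4, PTHLH, ANGPTL4 and ID1. They were picked out of the table by gene symbol, with earlier results of these data known, and all 10 were among the 17100 transcripts of the count table, 1 transcript per gene. Expression was measured by RNA sequencing in MDA-MB-231, an established human triple-negative breast cancer cell line that spreads to bone and lung in mice and from which more metastatic sublines have been selected. The 3 vehicle libraries came from MDA-MB-231 cells given vehicle, whose solvent is not named in the labels. Groups were taken from the sample titles, since the treatment text in the labels is the same for all 6 samples and describes guadecitabine. The 3 guadecitabine libraries came from the same line after 96 h in 1 µM guadecitabine (labelled SGI-110) and a further 24 h without drug. Guadecitabine releases decitabine, which is incorporated into DNA and traps DNA methyltransferases, so that methylation is lost as cells divide. The methods state 3 independent experiments. The labels name no metastatic subline and no genetic change, and all cells were grown in culture, without the stroma, vessels or bone that these genes act on.

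Metastasis mediators act at different steps. Matrix proteins such as SPARC (osteonectin), TNC (tenascin C) and SPP1 (osteopontin) alter the adhesion and survival of tumour cells at the new site. CD44, ICAM1 and VCAM1 are surface proteins that hold cells to hyaluronan, to leukocyte integrins or to each other, and the chemokine receptor CXCR4 steers cells towards CXCL12 made in bone marrow and lung. PTHLH (parathyroid hormone-related protein) drives osteoclast formation in bone metastases, ANGPTL4 loosens the junctions of lung capillaries, and ID1 is a helix-loop-helix protein without a DNA-binding domain that blocks other transcription factors of its class and helps tumour cells to start growing again in the lung. SPARC, TNC, VCAM1, ANGPTL4 and ID1 belong to a set of genes linked to lung metastasis of this line, and CXCR4 and SPP1 to one linked to bone metastasis.

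The promoters of 4 members are shown for what they hold near the start site: the CpG dinucleotides of SPARC, the gene with the largest rise, and sites of the form bound by NF-kB in ICAM1 and VCAM1, which rose, and in TNC, which fell. Each is the 250 bases before the RefSeq transcription start site on GRCh38.p14, 5′ to 3′ on the strand of the gene. For SPARC, at chr5:151686916-151687165 on the minus strand, capitals mark CpG dinucleotides, the sites at which DNA is methylated. For ICAM1, at chr19:10270870-10271119 on the plus strand, VCAM1, at chr1:100719492-100719741 on the plus strand, and TNC, at chr9:115118158-115118407 on the minus strand, capitals mark matches to the kB-like motif GGNNNTTCC on either strand.
SPARC: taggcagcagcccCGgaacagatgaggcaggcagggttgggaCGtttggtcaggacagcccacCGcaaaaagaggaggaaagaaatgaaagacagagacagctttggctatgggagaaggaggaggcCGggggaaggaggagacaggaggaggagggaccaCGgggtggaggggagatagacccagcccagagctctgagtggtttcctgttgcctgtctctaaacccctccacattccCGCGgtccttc
ICAM1: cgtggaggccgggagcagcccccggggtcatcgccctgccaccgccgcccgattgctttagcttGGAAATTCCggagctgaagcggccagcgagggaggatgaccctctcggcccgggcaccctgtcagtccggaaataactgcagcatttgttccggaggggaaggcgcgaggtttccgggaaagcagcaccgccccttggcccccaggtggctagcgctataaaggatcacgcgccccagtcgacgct
VCAM1: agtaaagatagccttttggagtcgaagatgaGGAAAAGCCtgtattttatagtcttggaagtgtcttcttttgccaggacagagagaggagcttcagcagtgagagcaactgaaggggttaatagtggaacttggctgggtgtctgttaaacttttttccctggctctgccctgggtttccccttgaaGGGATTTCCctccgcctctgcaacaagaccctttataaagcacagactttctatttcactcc
TNC: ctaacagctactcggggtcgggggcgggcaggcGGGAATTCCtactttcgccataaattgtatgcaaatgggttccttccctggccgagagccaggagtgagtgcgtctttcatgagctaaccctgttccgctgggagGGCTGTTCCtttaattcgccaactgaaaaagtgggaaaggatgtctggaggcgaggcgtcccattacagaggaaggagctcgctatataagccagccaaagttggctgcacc

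RefSeq windows were matched for all 10 members, 12 windows in all, since CXCR4 had 3. A kB-like motif was present in 4 of the 12 windows, those of ICAM1, VCAM1 and TNC and 1 of CXCR4, against 17.1% of 35116 promoter windows of the same length. In ICAM1 the match, GGAAATTCC, began 186 bases before the start site. In VCAM1 the nearer match, GGGATTTCC, began 62 bases before it. TNC had 2 matches, GGGAATTCC and GGCTGTTCC, and CXCR4 had 1, GGAAATGCC. The GC box GGGCGG was present in 8 of the 12 windows against 42.6% of all windows, TATAAA in 5 against 10.7% and the AP-1-like motif TGANTCA in 0 against 6.57%. Both strands were searched, and no kB-like match overlapped another motif searched. A match is a description of the letters and no evidence of binding.

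CpG content differed among the members. SPARC had 7 CpG dinucleotides in the 250 bases, VCAM1 2 and SPP1 3, against a median of 11 over all windows (quartiles 3 and 23). ICAM1 had 23, ID1 and PTHLH 19 each, ANGPTL4 16, CD44 15 and TNC 12, and the 3 windows of CXCR4 had 8, 12 and 24. In 1000 bp centred on the start deposited by the authors, on GRCh37, VCAM1 had 9 CpG dinucleotides, PTHLH 11, SPP1 12 and SPARC 23. These 4 genes lay below the lower quartile of 39 of all deposited starts (median 67). TNC had 40, CD44 49, CXCR4 66, ID1 70, ICAM1 73 and ANGPTL4 86. PTHLH was poor in CpG around its deposited start only, and its windows, set on different builds, were not aligned with each other. Methylation at these sites was not analysed here.

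Library totals were 17602570 to 22277442 counts for vehicle and 8792127 to 21410849 for guadecitabine, with guadecitabine replicate 2 the shallowest. Vehicle replicate 3 stood apart, with 20 transcripts at 0 counts against 2498 and 2517 in the other vehicle libraries and 1593 to 2090 in the guadecitabine libraries. Over 2742 transcripts with at most 1 count in each of vehicle replicates 1 and 2, vehicle replicate 3 held a median of 7.71 counts per kb of exon (quartiles 5.44 and 11.1). This background touched the members with few vehicle reads, SPARC, VCAM1, ANGPTL4, SPP1 and PTHLH, and it is given beside each of them. The line was checked by its markers. VIM, AXL, CAV1 and LOXL2, the mesenchymal markers of MDA-MB-231, were abundant in all 6 libraries, with at least 2513 counts each and levels of VIM from 2074 to 2972 normalized CPM per kb of counted exon, the scale of all levels given here. After guadecitabine VIM was higher, with a log2 fold change of 0.33, and AXL (-1.27), CAV1 (-1.19) and LOXL2 (-0.52) were lower. ESR1 and PGR, the hormone receptors, had at most 1 count in 5 libraries, and 67 and 43 counts in vehicle replicate 3, where the background predicted 49.9 and 94.9.

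Counts were compared between the groups with edgeR's quasi-likelihood test, in which 5022 of 13322 tested genes, or 37.7%, passed a Benjamini-Hochberg adjusted p of 0.05. Of all tested genes 19.3% were higher after guadecitabine and 18.4% were lower. Of the 10 metastasis mediators 7 were higher, SPARC, SPP1, ICAM1, PTHLH, VCAM1, CD44 and ANGPTL4, 2 were lower, ID1 and TNC, and CXCR4 did not pass. The 2 that fell are a share near that of all genes, and the 7 that rose are a larger one. The median log2 fold change was 1.61 over the 10 members and 0.02 over all tested genes. SPP1 and PTHLH passed the filter on low counts only through the guadecitabine libraries, so that a test of them began from a difference. Of the 8 members above the filter in every vehicle library, 5 were higher and 2 lower, with a median log2 fold change of 1.09. In 9 of the 10 members the normalized counts of the groups did not overlap, against 51.7% of all tested genes. With 3 libraries against 3, such a gene has p = 0.1 in a two-sided exact permutation test, the smallest p this design allows, so that the statements on single genes rest on the edgeR model.

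**Figure D1:**
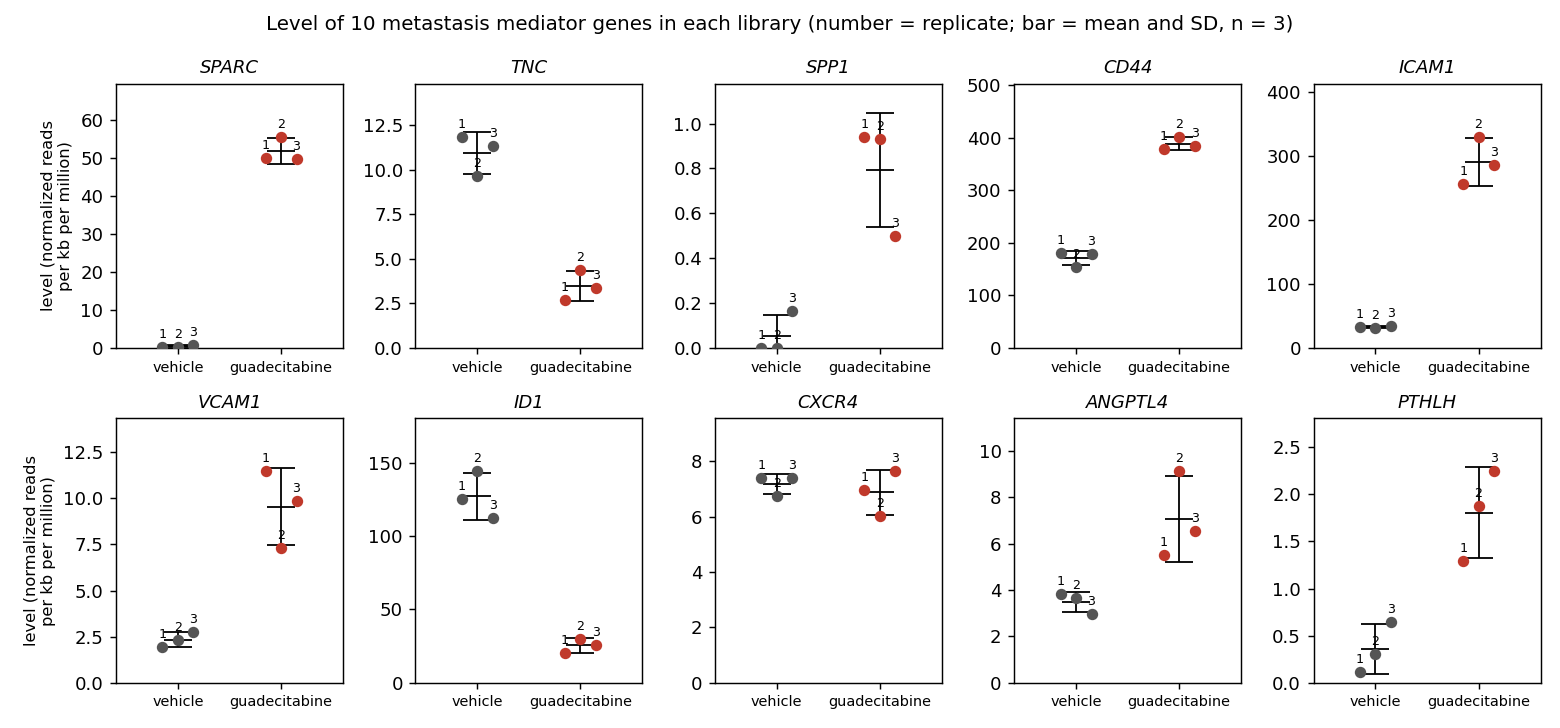
Level of each of the 10 genes in each library, in CPM per kb of counted exon, on linear axes that start at 0 and differ between panels. Grey points are vehicle and red points guadecitabine, numbered by replicate, and bars show mean and SD (n = 3). The groups overlap for CXCR4 and for no other gene, TNC and ID1 fall, and the other 7 rise.

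Among the matrix proteins SPARC rose and TNC fell, and SPP1 was called at counts near the limit of detection. SPARC, which binds collagen and modulates the attachment of cells to matrix, lies at chr5:151040657-151066615 on the minus strand (GRCh37). It had 18, 24 and 74 counts in vehicle replicates 1 to 3 and 3759, 1665 and 2994 in guadecitabine replicates 1 to 3. All 3 guadecitabine libraries were far above the vehicle libraries. Its level rose from 0.545 ± 0.347 to 51.8 ± 3.38 (SD, n = 3), a log2 fold change of 6.51 ± 0.322 (SE, adjusted p = 1.41e-06, edgeR). SPARC ranked 33rd by rise among the 13322 genes tested. The background of vehicle replicate 3 predicted 26.2 of its 74 counts, and without this library the log2 fold change was 7.21.

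SPARC is also abundant in fibroblasts, and COL1A1, another gene that fibroblasts express strongly, moved with it. COL1A1 had 132, 146 and 380 counts in the vehicle libraries and 2175, 1143 and 1939 after guadecitabine, a log2 fold change of 3.38 ± 0.286 (SE, adjusted p = 3.34e-05, edgeR). Of the 5 fibroblast markers listed, 3 were tested and with all libraries COL1A1 alone was called. Without vehicle replicate 3 all 3 were higher, COL1A1 at 3.85, PDGFRA at 3.23 (adjusted p = 0.00126, edgeR) and LUM at 1.32 (adjusted p = 0.0289, edgeR). In that fit 3002 of all 13296 tested genes were higher. The summed level of the 5 ran from 1.70 to 5.24 in the vehicle libraries and from 17.6 to 23.5 after guadecitabine. DCN and COL3A1, the other fibroblast markers listed, had at most 5 counts in every library except vehicle replicate 3, which had 24 and 108. The part of fibroblast RNA in the value of SPARC was not tested. The labels name MDA-MB-231 cells alone, and in bulk RNA more cells of a type cannot be told apart from more RNA per cell.

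TNC, an anti-adhesive matrix glycoprotein of metastatic niches, lies at chr9:117781854-117880536 on the minus strand. It had 1916, 1402 and 2254 counts in the vehicle libraries and 513, 330 and 515 after guadecitabine. Its level fell from 10.9 ± 1.17 to 3.48 ± 0.837 (SD, n = 3), which is 3.17-fold lower, with a log2 fold change of -1.67 ± 0.174 (SE, adjusted p = 0.000109, edgeR). Each guadecitabine library lay below each vehicle library. TNC was thus the matrix gene with the highest vehicle level of the 3, and SPARC the one with the highest level after guadecitabine.

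SPP1, a secreted phosphoprotein of bone that binds integrins and CD44, lies at chr4:88896802-88904563 on the plus strand and was at the limit of detection. It had 0, 0 and 6 counts in the vehicle libraries and 33, 13 and 14 after guadecitabine. The 6 counts of vehicle replicate 3 were fewer than the 12.2 that its background predicted. The level was 0.791 ± 0.254 (SD, n = 3) after guadecitabine, the lowest of the 10 genes, and the log2 fold change was 3.60 ± 1.03 (SE, adjusted p = 0.0226, edgeR). Without vehicle replicate 3, whose counts were the only vehicle counts, SPP1 was at least 7.08-fold higher, with each vehicle library set to a floor of 3 counts. The call was lost when any other single library was left out, with adjusted p from 0.0634 to 0.0890 (edgeR).

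**Figure D2:**
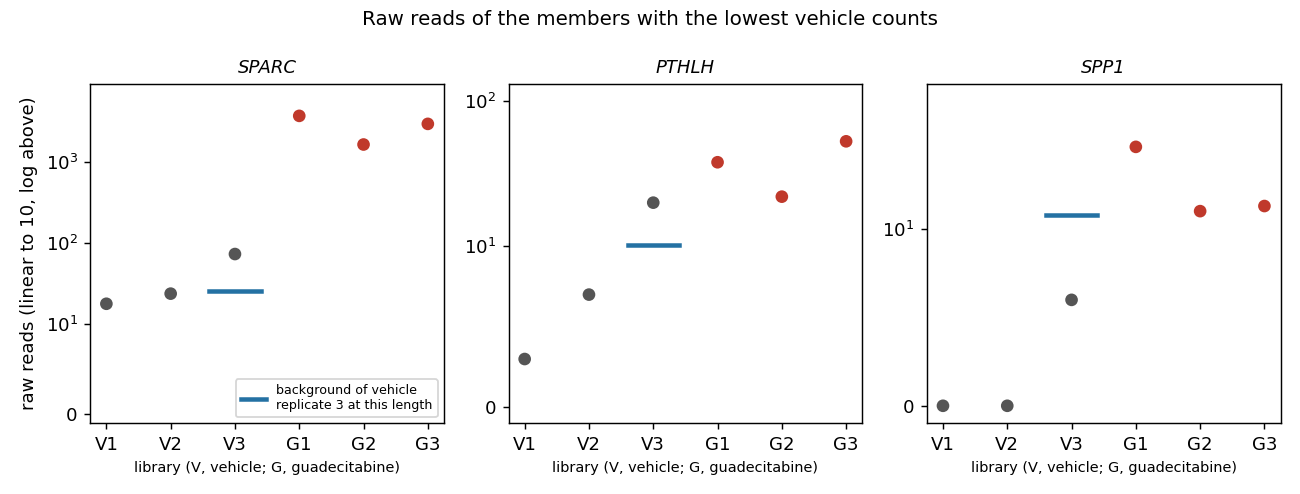
Raw reads of SPARC, PTHLH and SPP1 in each library (V, vehicle, grey; G, guadecitabine, red), on axes that are linear up to 10 reads and logarithmic above. The blue line is the number of reads that the background of vehicle replicate 3 predicts for the exon length of the gene, 26.2 for SPARC, 10.3 for PTHLH and 12.2 for SPP1. The guadecitabine reads of SPARC, at 1665 or more, lie far above it, while those of SPP1, from 13 to 33, begin just above it.

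All 3 adhesion genes rose. ICAM1, the receptor of leukocyte integrins on activated endothelium and many tumour cells, lies at chr19:10381517-10397291 on the plus strand. It had 2048, 1735 and 2554 counts in the vehicle libraries and 18384, 9433 and 16495 after guadecitabine. The level rose from 33.0 ± 1.30 to 291 ± 37.3 (SD, n = 3), 8.81-fold higher, with a log2 fold change of 3.14 ± 0.122 (SE, adjusted p = 3.45e-07, edgeR). ICAM1 had the smallest adjusted p of the 10 genes. Without vehicle replicate 3 the log2 fold change was 3.16.

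VCAM1, which binds the integrin of ITGA4 and ITGB1 on leukocytes and osteoclast precursors, lies at chr1:101185196-101204601 on the plus strand. It had 117, 127 and 203 counts in the vehicle libraries and 812, 206 and 561 after guadecitabine. The 206 counts of guadecitabine replicate 2 came from the shallowest library and correspond to a level of 7.31, above the 1.94, 2.34 and 2.73 of the vehicle libraries. The mean level rose from 2.34 ± 0.395 to 9.55 ± 2.09 (SD, n = 3), 4.10-fold higher, with a log2 fold change of 2.04 ± 0.193 (SE, adjusted p = 6.44e-05, edgeR). Background predicted 24.7 of the 203 counts in vehicle replicate 3, and without that library the value was 2.17.

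ICAM1 and VCAM1 are also genes of activated endothelium. Of the 5 endothelial markers 4 were tested, and with all libraries KDR alone was higher, with a log2 fold change of 1.20 ± 0.219 (SE, adjusted p = 0.00261, edgeR). Without vehicle replicate 3, KDR (1.43), TEK (3.97, adjusted p = 0.000321) and PECAM1 (0.77, adjusted p = 0.0191) were higher, 3 of the 4 tested. In that fit 3002 of all 13296 tested genes were higher. TEK had 1, 2 and 45 counts in the vehicle libraries and 27, 16 and 25 after guadecitabine. Without vehicle replicate 3, TEK passed the filter on low counts only through the guadecitabine libraries, so that its test began from a difference. The summed level of the markers was 1.30 to 2.79 in the vehicle libraries and 2.82 to 3.58 after guadecitabine. This is far below the level of ICAM1. The upper end in vehicle, above the mean VCAM1 level of 2.34, came from vehicle replicate 3, the library with the background. The lower end in vehicle was below each vehicle level of VCAM1. CDH5, the cadherin of endothelial junctions, had at most 4 counts in every library except vehicle replicate 3, which had 18. VWF had at most 11 counts, again apart from vehicle replicate 3 with 66. The part of endothelial RNA in the values of VCAM1 and ICAM1 was not tested.

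CD44, the main receptor for hyaluronan and a marker of the stem-like state of breast cancer cells, lies at chr11:35160417-35253949 on the plus strand. With 16887, 13085 and 20645 counts in the vehicle libraries and 41739, 17632 and 33948 after guadecitabine, it was the most abundant of the 10 genes in both groups. Its level rose from 171 ± 14.2 to 388 ± 12.3 (SD, n = 3), 2.27-fold higher, with a log2 fold change of 1.18 ± 0.0962 (SE, adjusted p = 2.66e-05, edgeR). CD24, the sialoglycoprotein whose absence together with CD44 marks that state, had 200, 177 and 321 counts in the vehicle libraries and 120, 61 and 105 after guadecitabine. It was lower, with a log2 fold change of -0.95 ± 0.182 (SE, adjusted p = 0.00336, edgeR). The counts are of 1 transcript, and splice forms of CD44 were not resolved.

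CXCR4, the receptor of CXCL12, did not pass the test. It lies at chr2:136871919-136875725 on the minus strand and had 233, 192 and 287 counts in the vehicle libraries and 258, 89 and 227 after guadecitabine. The level was 7.19 ± 0.367 in vehicle and 6.88 ± 0.804 after guadecitabine (SD, n = 3), and the groups overlapped. The log2 fold change was -0.05 ± 0.141 (SE, adjusted p = 0.789, edgeR), with a 95% confidence interval from -0.37 to 0.26. ACKR3, the second receptor of CXCL12, fell from levels of 2.58, 2.92 and 4.15 to 0.861, 0.758 and 0.644, a log2 fold change of -2.09 ± 0.286 (SE, adjusted p = 0.000542, edgeR). CXCL12 itself had 0, 0 and 42 counts in the vehicle libraries and 2, 0 and 7 after guadecitabine, and it was too low to be tested.

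Of the secreted factors ANGPTL4 rose, and PTHLH was called at low counts that several single libraries decided. ANGPTL4, an inhibitor of lipoprotein lipase that also opens endothelial junctions, lies at chr19:8429011-8439259 on the plus strand. It had 137, 118 and 132 counts in the vehicle libraries and 233, 153 and 222 after guadecitabine. The level rose from 3.49 ± 0.442 to 7.07 ± 1.85 (SD, n = 3), 2.01-fold higher, with a log2 fold change of 1.00 ± 0.2095 (SE, adjusted p = 0.00524, edgeR). The 153 counts came from the shallowest library, which had the highest level, 9.13. Background predicted 14.7 of the 132 counts in vehicle replicate 3, and without that library the log2 fold change was 0.89. LPL, the lipase it inhibits, stood at 0.07 on the log2 scale (adjusted p = 0.922, edgeR) at 14 to 49 counts.

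PTHLH, the hormone through which breast cancer cells stimulate bone resorption, lies at chr12:28111017-28124916 on the minus strand. It had 3, 7 and 20 counts in the vehicle libraries and 38, 22 and 53 after guadecitabine. Background predicted 10.3 of the 20 counts in vehicle replicate 3. The level rose from 0.359 ± 0.267 to 1.80 ± 0.481 (SD, n = 3), with a log2 fold change of 2.28 ± 0.638 (SE, adjusted p = 0.0206, edgeR), and 3.04 without vehicle replicate 3. The call was lost without vehicle replicate 1 or 2 and without guadecitabine replicate 2 or 3, with log2 fold changes of 1.88, 2.19, 2.27 and 2.10 and adjusted p from 0.0544 to 0.109 (edgeR). PTH1R, the receptor of PTHLH, did not pass (log2 fold change -0.66, adjusted p = 0.404, edgeR).

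ID1 had the largest fall of the 10 genes. It lies at chr20:30193086-30194317 on the plus strand and had 2898, 3011 and 3206 counts in the vehicle libraries and 552, 327 and 569 after guadecitabine. Every guadecitabine library was far below every vehicle library. The level fell from 127 ± 16.04 to 25.5 ± 4.98 (SD, n = 3), 5.02-fold lower, with a log2 fold change of -2.33 ± 0.165 (SE, adjusted p = 1.17e-05, edgeR). ID1 ranked 117th by fall among all genes tested and TNC 329th. ID3, the relative that acts with ID1 in lung metastasis, fell from levels of 55.1, 60.1 and 50.5 to 12.6, 14.9 and 13.4, a log2 fold change of -2.02 ± 0.120 (SE, adjusted p = 3.81e-06, edgeR). ID4 was lower at counts near the limit, with a log2 fold change of -2.59 ± 0.682 (SE, adjusted p = 0.0160, edgeR) and -1.90 without vehicle replicate 3, and ID2 did not pass (-0.07, adjusted p = 0.917, edgeR).

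**Figure D3:**
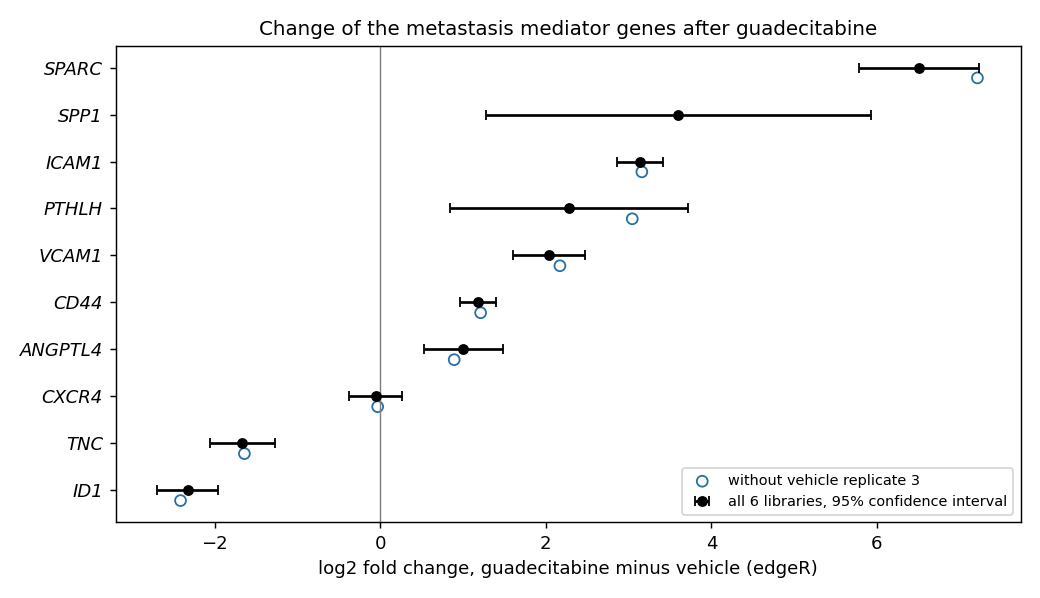
Log2 fold change of each gene, guadecitabine minus vehicle, from edgeR. Black points are the fit of all 6 libraries with 95% confidence intervals, and open blue circles are the fit without vehicle replicate 3, drawn for all genes except SPP1, which then has no vehicle read. Only the interval of CXCR4, -0.37 to 0.26, includes 0, and the widest interval is that of SPP1.

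The order of the levels changed with treatment. In vehicle the order per kb of exon was CD44, ID1, ICAM1, TNC, CXCR4, ANGPTL4, VCAM1, SPARC, PTHLH and SPP1, and neighbours overlapped between libraries for SPARC and PTHLH and for PTHLH and SPP1. After guadecitabine it was CD44, ICAM1, SPARC, ID1, VCAM1, ANGPTL4, CXCR4, TNC, PTHLH and SPP1, with overlap between VCAM1 and ANGPTL4 and between ANGPTL4 and CXCR4. SPARC moved from the eighth place to the third and TNC from the fourth to the eighth. CD44 stayed first and PTHLH and SPP1 last.

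The strand used in counting is not given in the sources used here, and opposite-strand noncoding genes of GENCODE overlap the exons of 6 members. The overlap was 815 bp at ICAM1, 301 bp at PTHLH, 196 bp at SPP1, 129 bp at TNC, 111 bp at SPARC and 84 bp at CD44. Reads of both strands cannot be told apart there. VCAM1, CXCR4, ANGPTL4 and ID1 had no such overlap.

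Other genes linked to lung metastasis moved in both directions, and those linked to bone metastasis that passed were all higher. Of 15 tested lung metastasis genes apart from the members, 7 were higher, 6 were lower and 2 did not pass. The shares of all tested genes were 19.3% higher and 18.4% lower. The median log2 fold change of the 15 genes was -0.18. These genes were not sorted by whether they favour or restrain lung metastasis. A gene among the 6 is therefore not necessarily a mediator that fell, and the median gives no direction for mediators alone. CXCL1, a chemokine that attracts neutrophils, had levels of 6.73, 7.11 and 8.78 in vehicle and 699, 759 and 773 after guadecitabine, a log2 fold change of 6.62 ± 0.148 (SE, adjusted p = 2.17e-08, edgeR). The collagenase MMP1 rose from 2.82, 2.81 and 2.90 to 133, 105 and 103, a log2 fold change of 5.32 ± 0.151 (SE). PTGS2, which makes prostaglandins, had a log2 fold change of 3.53 ± 0.392 (SE, adjusted p = 0.000158) and 4.32 without vehicle replicate 3, and KYNU of the kynurenine pathway 2.37 ± 0.270 (SE). Of those that fell, named after their values were seen, ADIRF had a log2 fold change of -2.11 ± 0.145 (SE, adjusted p = 9.72e-06, edgeR), the scaffold protein NEDD9 -1.39 ± 0.110 (SE), and LTBP1, which binds latent TGF-beta, -1.33 ± 0.131 (SE).

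Of 9 tested bone metastasis genes apart from the members, 5 were higher, 0 were lower and 4 did not pass. Among all tested genes 19.3% were higher and 18.4% were lower. The median log2 fold change of the 9 genes was 0.29. SRGN, the proteoglycan serglycin, rose from levels of 35.2, 37.6 and 33.8 to 326, 341 and 341, a log2 fold change of 3.24 ± 0.103 (SE, adjusted p = 9.38e-08, edgeR). IL11, a cytokine that supports osteoclasts, rose by a log2 fold change of 2.46 ± 0.211 (SE) and the phosphatase DUSP1 by 2.25 ± 0.154 (SE). FST, at 0.31 (adjusted p = 0.0358, edgeR), and LOX, named after its values were seen, at 0.29 (adjusted p = 0.0482, edgeR), passed narrowly. The count of 5 fell to 3 without any 1 of vehicle replicates 1, 2 and 3 or guadecitabine replicates 2 and 3.

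Of 14 tested ligands and receptors of the members, 4 were higher, 3 were lower and 7 did not pass, beside 19.3% higher and 18.4% lower among all tested genes. SDC4, a syndecan and co-receptor for matrix proteins, rose by a log2 fold change of 2.77 ± 0.131 (SE, adjusted p = 1.07e-06, edgeR). ITGB3, the partner of ITGAV in the integrin that binds SPP1, rose from levels of 2.69, 2.49 and 2.91 to 7.01, 9.03 and 6.69, a log2 fold change of 1.48 ± 0.142 (SE), and ITGAV by 0.50 ± 0.111 (SE, adjusted p = 0.00732). ITGB5, another partner of ITGAV, was lower at -0.92 ± 0.135 (SE, adjusted p = 0.00079). The partners ITGB3 and ITGB5 thus moved in opposite directions. CD74, the MIF receptor that pairs with CD44 and CXCR4, had a log2 fold change of -0.67 ± 0.106 (SE, adjusted p = 0.00117). ITGB7, which passed the filter through the guadecitabine libraries so that its test began from a difference, had levels of 0.0371, 0.0617 and 0.902 in vehicle and 1.86, 2.93 and 2.28 after guadecitabine, with a log2 fold change of 2.73 ± 0.836 (SE, adjusted p = 0.0299) that became 5.49 without vehicle replicate 3. Of the receptors of VCAM1, ITGB1 did not pass (-0.13, adjusted p = 0.592) and ITGA4 was too low to be tested. HAS2, which makes hyaluronan for CD44, did not pass (-0.06, adjusted p = 0.847).

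Of 13 tested family relatives, 2 were higher, 6 were lower and 5 did not pass, with a median log2 fold change of -0.36. Beside them, 19.3% of all tested genes were higher and 18.4% lower. ICAM2 rose from levels of 9.65, 8.98 and 11.05 to 35.5, 39.8 and 37.3, a log2 fold change of 1.91 ± 0.133 (SE, adjusted p = 1.03e-05, edgeR), as ICAM1 did. ICAM4 was lower at -0.81 ± 0.178 (SE, adjusted p = 0.0067), while ICAM3 and ICAM5 did not pass. SPOCK1 and SPOCK3, testicans of the SPARC family, had at most 122 counts in any library and log2 fold changes of -1.89 (adjusted p = 0.0322) and -3.07 (adjusted p = 0.00179). Like ID4 they passed the filter on low counts through the vehicle libraries, so that their tests began from a difference, and with at least 10 counts in every library 3 relatives were lower in place of 6. ANGPTL2 was lower, at -1.54 ± 0.105 (SE), where ANGPTL4 was higher. TNXB, a tenascin, was higher at 1.44 ± 0.187 (SE), opposite to TNC, but its count is uncertain because the genome holds a near-identical partial copy, TNXA. Opposite directions within a family were thus called for ICAM1 and ICAM4 and for ANGPTL4 and ANGPTL2. They were also called for SPARC and the testicans, which had low counts, and for TNC and the uncertain TNXB.

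Of 11 tested transcription factors known to act on or with the members, 2 were higher, 3 were lower and 6 did not pass, with a median log2 fold change of 0.02, beside 19.3% higher and 18.4% lower among all tested genes. NFKB1, which binds kB sites, rose from levels of 13.9, 14.0 and 13.7 to 24.8, 23.3 and 22.6. Its log2 fold change was 0.77 ± 0.0962 (SE, adjusted p = 0.000326, edgeR). The kB-like motif was present at ICAM1 and VCAM1, which rose, at TNC, which fell, and at CXCR4, which did not pass. Binding was not measured. RELA, named after its values were seen, was higher at 0.36 ± 0.104 (SE, adjusted p = 0.0237). GLI2, an activator of PTHLH, fell from 1.94, 2.16 and 1.83 to 0.467, 0.571 and 0.625, a log2 fold change of -1.84 ± 0.177 (SE, adjusted p = 6.77e-05), while PTHLH was higher. RUNX2, a regulator of SPP1, was lower at -0.67 ± 0.119 (SE, adjusted p = 0.00222). Of the partners that ID1 blocks, TCF12 was lower at -0.45 ± 0.155 (SE, adjusted p = 0.0478), a call lost without vehicle replicate 3 (adjusted p = 0.0869), and TCF3 did not pass (0.02, adjusted p = 0.914). Without any 1 of vehicle replicates 1, 2 and 3 or guadecitabine replicates 2 and 3, the count of 2 higher fell to 1 and that of 3 lower to 2.

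**Figure D4:**
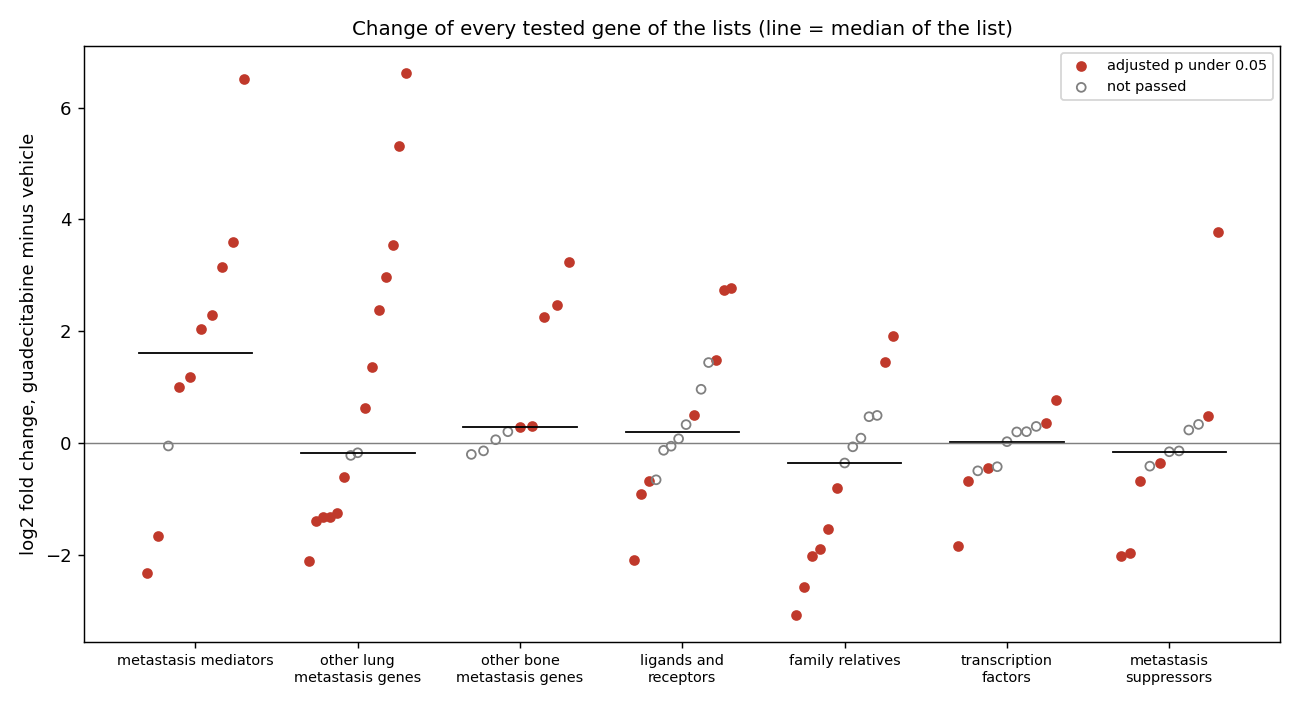
Log2 fold change of every tested gene of 7 lists, guadecitabine minus vehicle, with red points for an adjusted p under 0.05 in edgeR, open points for genes that did not pass, and a black line at the median of each list. The median is 1.61 for the metastasis mediators, -0.18 for the other lung metastasis genes, 0.29 for the other bone metastasis genes and -0.36 for the family relatives.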

How the data were processed

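RNA of MDA-MB-231 cells (3 vehicle and 3 guadecitabine libraries) was prepared with the TruSeq RNA kit and sequenced on an Illumina HiSeq. Per the labels, STAR 2.3.1z and DESeq2 were used with hg19. The authors counted tags in exons per RefSeq transcript with iRNA-seq and deposited raw read counts, which are analysed here. The authors also deposited regularized log2 values and the log2 fold change, standard error, test statistic (a score), p-value and adjusted p-value of their own DESeq2 comparison. These columns were not used. The table held 17100 transcripts, and columns that match no sample were 0.

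The test was that of edgeR 4.0.16 under R 4.3.3 (TMM, filterByExpr with a minimum count of 10, quasi-likelihood F test, Benjamini-Hochberg over the 13322 genes kept, threshold 0.05). Standard errors were derived from the F statistic. Levels are TMM normalized CPM per kb of counted exon. The floor of detection was 3 counts in a library and covers counting error only, since reads are not independent molecules. The script was tested on simulated data. P-values measure the spread between the 3 experiments of each group. The 10 genes and the lists beside them were chosen with earlier results of these data known. From each other list up to 4 called genes with a mean count of at least 100 and the largest change were named, with direct ligands, receptors and relatives of a member beside it. Genes named outside this rule (CD24, COL1A1, KDR and the other cell markers) come from marker lists, and those chosen after their values were seen are so described. Alternatives were a block for the replicate number, DESeq2 1.42.0, its size factors, library totals alone, no filter, at least 10 counts in every library, background subtracted from vehicle replicate 3, and each library left out. Promoter windows came from RefSeq (GRCh38.p14) and were read with Python 3.11.15. Overlaps between genes were taken from GENCODE 44 lifted to GRCh37, which is hg19. Coordinates of the genes are those deposited. Protein sequences were not used here.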

Additional observations from a re-analysis of the deposited data

How the results depend on the processing

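Over the 10 genes and all alternatives, 117 values kept their direction and side of the threshold, 10 lost the call and 1 changed sign. The 10 lost calls were those of SPP1 and PTHLH, the genes with the fewest reads. CXCR4, not called in any fit, changed sign without guadecitabine replicate 2 (0.0243, against -0.14 without guadecitabine replicate 3). SPP1 had a log2 fold change of 3.75 without the filter (adjusted p = 0.0934, edgeR), and 3.09 to 7.39 with each library left out, where the higher value, without vehicle replicate 3, depends on the prior count, as does the 7.46 with background subtracted from that library. PTHLH ranged from 1.88 to 3.04 with each library left out. The number of members called higher was 6 without the filter, 5 with at least 10 counts in every library, where SPP1 and PTHLH were not tested, and 5 to 7 with each library left out (7 without vehicle replicate 3). The number called lower was 2 throughout. The other bone metastasis genes called higher were 3 with the replicate block and 3 without the filter (3 to 6 with each library left out). The transcription factors called higher were 1 with the block and 1 without the filter (1 to 3 with each library left out). The family relatives called lower were 3 with at least 10 counts in every library, and the metastasis suppressors called higher were 1 to 3 with each library left out. Over all genes, 1706 to 3002 were called higher and 1629 to 2575 lower with each library left out, the lowest without guadecitabine replicate 3. Without the filter the median log2 fold change of all genes was -0.11.

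Same-numbered libraries did not deviate together (correlations across genes of -0.0499, 0.0492 and -0.0366). The sources do not say whether a shared number marks 1 experiment, and with 3 libraries per group these correlations cannot decide it. With the replicate block the log2 fold changes were 6.58 for SPARC, 3.89 for SPP1, 3.13 for ICAM1, 2.49 for PTHLH, 2.02 for VCAM1, 1.18 for CD44, 0.99 for ANGPTL4, -0.06 for CXCR4, -1.68 for TNC and -2.33 for ID1. No call of a member changed with the block, and 2424 genes were higher and 2230 lower over all genes.

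Depth limits what the lowest genes can show: SPP1 and PTHLH had at most 33 and 53 counts in any library, and the background of vehicle replicate 3 lies in the same range.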

Other observations

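Metastasis suppressors, genes that restrain spread without stopping growth at the first site, were called in both directions. Of 11 tested, 2 were higher, 4 were lower and 5 did not pass, with a median log2 fold change of -0.16. The share that was higher is near the 19.3% of all tested genes, and the share that was lower is above their 18.4%. The number lower was 3 to 5 with each library left out. KISS1, the precursor of the kisspeptins, had levels of 8.04, 7.51 and 5.25 in the vehicle libraries and 70.3, 115.5 and 97.7 after guadecitabine, a log2 fold change of 3.77 ± 0.228 (SE, adjusted p = 4.25e-06, edgeR). BRMS1, named after its values were seen, was higher at 0.49 (adjusted p = 0.0218, edgeR). NDRG1 fell from 251, 247 and 228 to 57.0, 59.4 and 62.0, a log2 fold change of -2.02 ± 0.0969 (SE, adjusted p = 1.16e-06, edgeR). ARHGDIB had a log2 fold change of -1.96 ± 0.112 (SE, adjusted p = 2.99e-06, edgeR). PEBP1, an inhibitor of RAF kinase, was lower at -0.69 ± 0.0965 (SE, adjusted p = 0.000617, edgeR), and DLC1, named after its values were seen, at -0.36 (adjusted p = 0.0195, edgeR). The count of 2 higher fell to 1 without vehicle replicate 1 or guadecitabine replicate 2 or 3.

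HAS1, a hyaluronan synthase that supplies the ligand of CD44, had 0 counts in vehicle replicates 1 and 2, 105 in vehicle replicate 3 and 46, 37 and 52 after guadecitabine. Its log2 fold change with all libraries was 0.96 (adjusted p = 0.587, edgeR). Without vehicle replicate 3 it was called (adjusted p = 9.18e-05, edgeR) and at least 17.4-fold higher, with each remaining vehicle library set to a floor of 3 counts. The background of vehicle replicate 3 predicted only 16.3 of its 105 counts. With this background subtracted HAS1 was not called, at 1.07 (adjusted p = 0.474, edgeR). HAS3, another such enzyme, had 1.44 (adjusted p = 0.178) with all libraries and 2.49 (adjusted p = 0.00572) without vehicle replicate 3 (edgeR). With the background subtracted from that library HAS3 was not called, at 1.72 (adjusted p = 0.0513, edgeR). Without vehicle replicate 3, HAS1 and HAS3 passed the filter on low counts only through the guadecitabine libraries. Their tests in that fit thus began from a difference. The 5 leukocyte markers, of which 4 were in the table, gave 1 tested gene, CD14, which did not pass (0.12, adjusted p = 0.618, edgeR). Their summed level ran from 5.08 to 8.15 in the vehicle libraries and from 6.19 to 6.97 after guadecitabine. Of the 6 luminal or epithelial markers 4 were tested and all 4 were lower, beside 18.4% of all tested genes. CDH1 (E-cadherin) stood at -1.62 (adjusted p = 0.0313, edgeR), EPCAM at -0.68 and ERBB2 at -0.74. Background predicted 37.1 of the 87 counts of CDH1 in vehicle replicate 3. Without that library the log2 fold change of CDH1 was -1.14 (adjusted p = 0.0190, edgeR).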
